A study of Homo sapiens with 8 samples.

Results

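The genes described are receptors and SMAD proteins of transforming growth factor-beta (TGF-beta) signaling. They are TGFBR1, TGFBR2, TGFBR3, ACVR1, ACVR1B, BMPR2, SMAD2, SMAD3, SMAD4 and SMAD7, which make up 10 of the 20165 gene regions counted. They were chosen by name, with the fall of TGFBR3 footprints in siTARG1 libraries already known. For this reason their values in the siTARG1 comparison, including how many were past the threshold, are a description from which nothing is inferred, and p-values of these genes are given for the RACK1 comparison only.

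The data are ribosome profiling (Ribo-seq) libraries of OVCAR3, an established human ovarian cancer cell line. Ribo-seq sequences the mRNA fragments that a ribosome covers, so a footprint count follows the amount of an mRNA and its translation together. In one experiment, OVCAR3 cells stably transduced with lentivirus carried a doxycycline-inducible shRNA against their own RACK1, a protein of the small ribosomal subunit, and expressed RACK1 again from a transgene, which was wild type in RACK1-WT cells and had its mono-ADP-ribosylation (MARylation) sites mutated in RACK1-Mut cells, all under 1 µg/ml doxycycline. In the other, OVCAR3 cells were transfected with siRNA at 30 nM. The siRNA was a control in siControl cells. In siTARG1 cells it targeted OARD1, which encodes TARG1, an enzyme that removes ADP-ribose from proteins. All cells were collected after 48 h, with 2 libraries in each of the 4 groups. The methods list more than one siRNA against TARG1 and the labels do not say which one was used for these libraries. RACK1 libraries come from selected cell populations that make RACK1 from a transgene, and not from edited cells.

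Coding sequence counts summed to between 3100947 and 6604190 per library. The labels were checked on the targeted genes. OARD1 held 138 and 58 counts in siControl libraries and 7 and 6 in siTARG1 libraries, or 6.51% of the control level after scaling (log2 fold change -3.94, SE 0.557). RACK1, whose count pools the cell's own and the re-expressed mRNA, stood at 74.6% of the RACK1-WT level in RACK1-Mut cells. All 7 markers of ovarian carcinoma epithelium were present in each library, from 18.5 to 72.3 CPM (counts scaled to the library's coding total) for WT1 to 1600 to 3400 CPM for KRT8, with PAX8 at 369 to 587. Of 5 fibroblast genes, COL1A1 had 18.4 to 37.4 CPM and COL1A2 1.84 to 8.08, whereas DCN, LUM and PDGFRB had 0 counts in at least 1 library and at most 2.14 CPM. The monocyte gene CD14 had 1.43 to 8.1 CPM, PTPRC (leukocytes) at most 0.324, and CD3E (T cells) and CDH5 (endothelium) had 0 counts in each library. Whether such cells contribute to the results was not tested. In such bulk samples, fewer expressing cells and less mRNA in each cell cannot be told apart.

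TGF-beta signaling starts when a dimeric ligand brings together type II and type I receptor kinases at the cell surface. The type II receptor phosphorylates the type I receptor, which phosphorylates receptor-activated SMADs. These join SMAD4 and enter the nucleus to regulate genes. TGFBR2 and TGFBR1 are the type II and type I receptors of TGF-beta itself, and TGFBR3 (betaglycan) is a coreceptor that presents ligand and has no kinase domain. BMPR2 is a type II receptor for bone morphogenetic proteins (BMPs), ACVR1 is a type I receptor used mainly by BMPs, and ACVR1B is a type I receptor for activins. SMAD2 and SMAD3 carry TGF-beta and activin signals, and SMAD7 is an inhibitory SMAD that binds active type I receptors. In epithelial cells the pathway restrains proliferation, and it can drive epithelial-mesenchymal transition.

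The members were looked at for short words in their 3′ UTRs. The words TGAACATA and TGAATATA were chosen with results of these data known, and a match was counted where 7 or all 8 consecutive bases of a word were present on the sense strand. The sites of TGAACATA are printed for TGFBR3, BMPR2 and SMAD4, since these were the 3 members with the largest decrease. The sequence is that of GRCh37, 5′ to 3′ on the mRNA strand, and capitals mark the matched bases.
TGFBR3, chr1:92146800-92146827, minus strand, position 2479 of a 3′ UTR of 3396 nt: ttctaaaaaaTGAACATgaaaaaaataa
BMPR2, chr2:203425118-203425145, plus strand, position 459 of a 3′ UTR of 7803 nt: gatacgttccTGAACATAttatcttgtt
BMPR2, chr2:203430719-203430746, plus strand, position 6060: ttaaacattgTGAACATAcacattttta
SMAD4, chr18:48605268-48605295, plus strand, position 441 of a 3′ UTR of 6575 nt: ttgttattgtTGAACATActtcaaaaat
SMAD4, chr18:48608729-48608756, plus strand, position 3902: gtaatttcttTGAACATAccaagaagta

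BMPR2 and SMAD4 thus each held the whole word at 2 places, and TGFBR3 held 7 of its bases once. Among 10602 genes with an adjusted p and an annotated 3′ UTR, 19.6% held a match of 7 or 8 bases, 3.92% held the whole word and 0.311% held it at 2 places or more. A long 3′ UTR holds more words by length alone. Among genes with a 3′ UTR within 20% of its length, 66.3% had a match for a 3′ UTR like that of BMPR2, 57.6% for SMAD4 and 33.3% for TGFBR3. The whole word at 2 places or more occurred in 2.45% of genes with a 3′ UTR of the length of BMPR2 and in 1.16% at the length of SMAD4. Of the other members below their control in siTARG1 cells, SMAD3 held 2 matches of 7 bases and TGFBR2 held none.

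Matches were also present in members that were not below their control. TGFBR1 held 1 match of 7 bases and SMAD2 held 8 across a 3′ UTR of 32870 nt, none of them the whole word. ACVR1B, ACVR1 and SMAD7 held none. The second word, TGAATATA, matched 3 times in TGFBR1, once in ACVR1 (position 890 of 1085 nt), 3 times in BMPR2, once in SMAD4 and 6 times in SMAD2, where 2 of the matches were whole words. Of all 10602 genes, 26.7% held a match to it. A match says only that these letters are present.

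**Figure D1:**
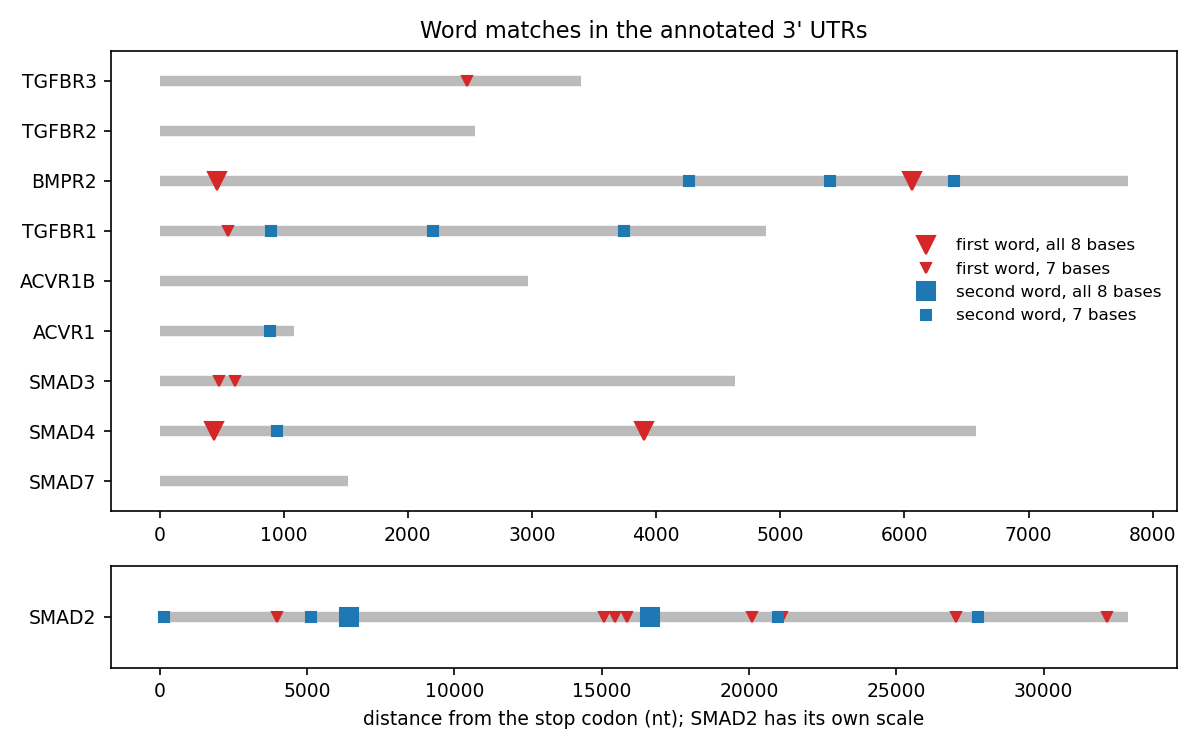
Position of each word match (x axis, distance from the stop codon in nt) in the annotated 3′ UTR of each gene (grey bar), with SMAD2 on its own scale. Red triangles mark TGAACATA and blue squares TGAATATA, large where all 8 bases match, and BMPR2 and SMAD4 are the genes with 2 large triangles.

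TGFBR3 footprints were fewer in both siTARG1 libraries than in either siControl library. The gene lies on chromosome 1 (92145900 to 92351708, minus strand, GRCh37). Its coding sequence held 156 and 96 counts in siControl libraries and 59 and 42 in siTARG1 libraries. After scaling to library size these were 137.1 and 114.4 normalized counts against 49.11 and 47.23, so siTARG1 cells had 38.2% of the control level (log2 fold change -1.39, SE 0.31). The decrease is the pattern the genes were chosen by. It stayed between -1.51 and -1.26 on the log2 scale with any 1 library left out.

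BMPR2, on chromosome 2 (203241050 to 203432472, plus strand), was lower by a similar factor but with more spread. It held 117.8 and 116.8 normalized counts in siControl libraries and 34.96 and 58.48 in siTARG1 libraries, from raw counts of 134 and 98 against 42 and 52. The siTARG1 mean was 39.3% of the control (log2 fold change -1.35, SE 0.334), and the change was -1.0 without the first siTARG1 library and -1.74 without the second. The groups did not overlap.

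TGFBR2, the kinase receptor that binds TGF-beta directly, was lower by less. It lies on chromosome 3 (30648093 to 30735634, plus strand) and had the highest level of the 10 genes. Its normalized counts were 435.9 and 392.2 in siControl libraries and 285.5 and 314.9 in siTARG1 libraries, or 72.2% of the control (log2 fold change -0.47, SE 0.158). With 343 and 280 raw counts in the siTARG1 libraries, the precision was better than for TGFBR3.

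The 3 type I receptors among the members were at or above their control levels. ACVR1 held 75.59 and 73.91 normalized counts in siControl and 106.5 and 114.7 in siTARG1 libraries, which is 148% of the control (log2 fold change 0.56, SE 0.289). TGFBR1, counted at only 27 to 50 raw counts per library here, gave 23.73 and 33.38 against 41.62 and 37.11 normalized counts (log2 fold change 0.48, SE 0.479). Its SE is as large as its change. ACVR1B, the activin receptor, gave 133.6 and 144.2 against 141.5 and 145.1, groups that overlapped and differed by 0.05 on the log2 scale (SE 0.235). Receptors outside the members, given with the pathway list, divided by type only in part. The type II receptor ACVR2B was at 21.2% of its control and the type I receptor BMPR1A at 134%. Against this division, the type II receptor ACVR2A was at 97.1% and the type I receptor BMPR1B at 56.4%. ENG, the remaining receptor of the 5 tested, was at 138%. Of these 5 receptors only ACVR2B was past the DESeq2 threshold, and a division by type was not tested. BMPR1A shares 83.4% of its 28-nt coding windows with other genes, so its count is uncertain.

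Among the SMADs, values of SMAD4 and SMAD3 lay below their control and those of SMAD2 above it, with the largest difference for SMAD4. SMAD4, the common partner of the receptor-activated SMADs, held 135.4 and 162.1 normalized counts in siControl libraries and 72.42 and 82.09 in siTARG1 libraries, or 51.9% of the control (log2 fold change -0.95, SE 0.271). Its counted region also joins transcripts of the neighboring gene ELAC1 and of a readthrough gene. Counts of SMAD4 therefore cannot be separated from theirs, and 38.8% of the 28-nt windows of the SMAD4 coding sequence also occur in the readthrough gene. SMAD2 held 146.8 and 157.3 against 194.8 and 199.0 normalized counts (130% of the control, log2 fold change 0.37, SE 0.213).

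SMAD3, which shares with SMAD2 the role of carrying TGF-beta signals, differed from its control in the opposite direction. It held 252.2 and 244.4 normalized counts in siControl and 215.6 and 166.4 in siTARG1 libraries (log2 fold change -0.37, SE 0.202), and the siTARG1 libraries were farther from each other than the lower siControl from the higher siTARG1 library. SMAD7 had 3 and 1 raw counts in siControl and again 3 and 1 in siTARG1 libraries, a total below the 10 counts needed for a fit, so no change could be read from it.

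**Figure D2:**
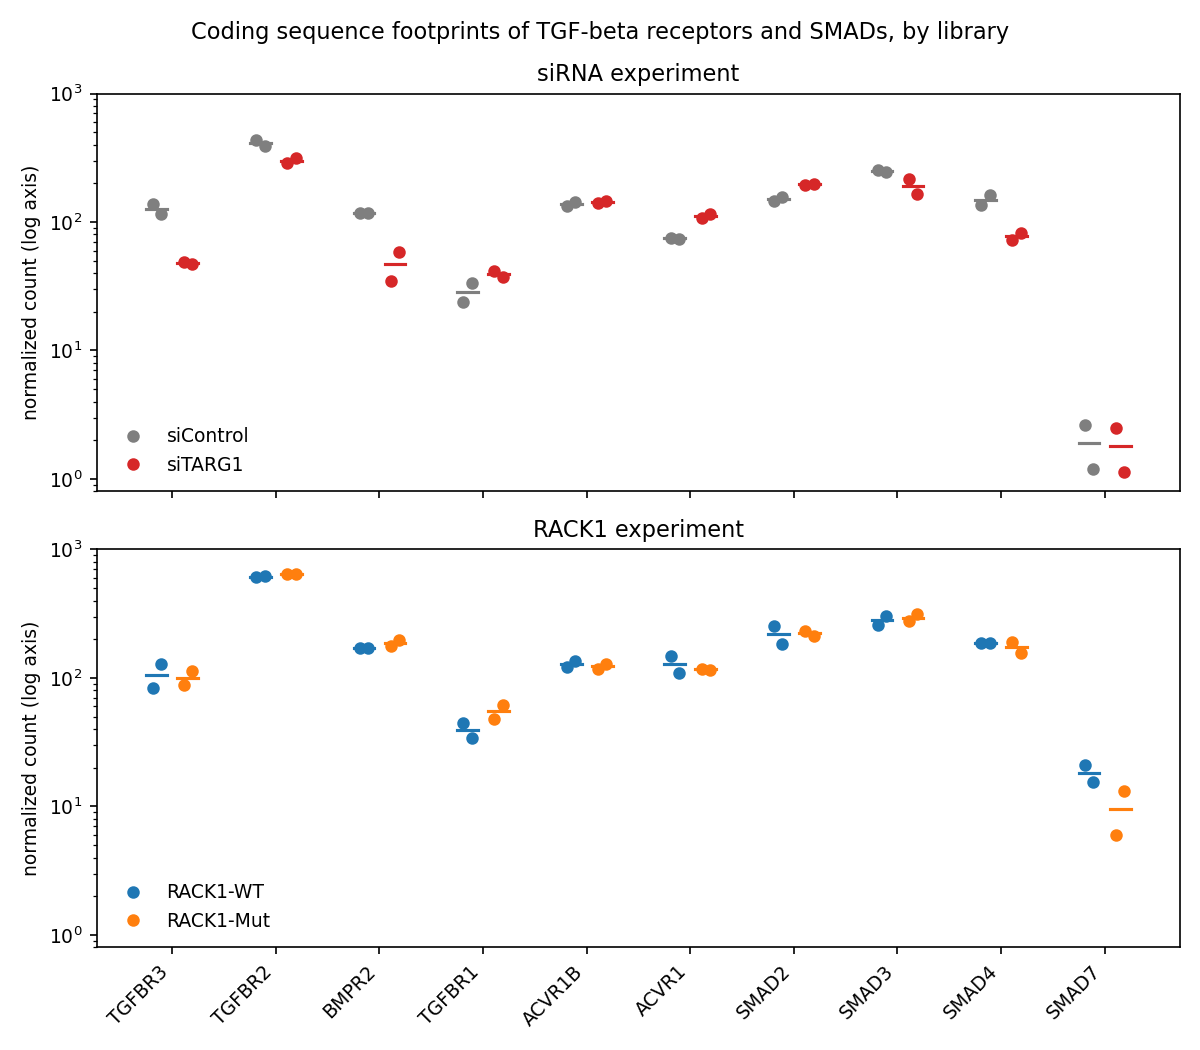
Normalized coding sequence footprint counts (log axis) of the 10 genes, with 1 point per library and a line at each group mean, scaled separately in the siRNA experiment (top) and the RACK1 experiment (bottom). The siTARG1 points of TGFBR3, BMPR2, TGFBR2 and SMAD4 lie below their siControl points, and in the RACK1 experiment the groups lie close together except for SMAD7.

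Of the 9 members fitted in the siTARG1 comparison, 4 were past an adjusted p of 0.05 in DESeq2, all lower (TGFBR3, BMPR2, SMAD4 and TGFBR2). Across all 11121 genes tested, 9.96% were called lower and 7.79% higher, and nothing is read from the members' count because TGFBR3 was selected on this comparison. By edgeR 5 members were past the threshold, with ACVR1 higher as the fifth (15.4% of 12056 genes were called lower and 13.4% higher by that test). For 8 of the 9 members the siTARG1 and siControl values were fully apart, as they were for 62.6% of all genes fitted. The median log2 fold change of the members was -0.37, against 0.0 over all genes, of which the central 90% lay between -1.01 and 0.96. The 4 calls fell to 0 without the first siControl library, to TGFBR3 alone without the second siControl or the first siTARG1 library, and to TGFBR3 and BMPR2 without the second siTARG1 library.

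The RACK1 comparison asks whether footprints on the same genes differ between cells re-expressing RACK1 with mutated MARylation sites and cells re-expressing wild-type RACK1. Footprints of RACK1 itself were also fewer in RACK1-Mut cells (74.6% of RACK1-WT, log2 fold change -0.42, SE 0.0601). The mutation and the amount of RACK1 footprints therefore differ together and cannot be told apart here. No member was called: DESeq2 found 0 of 10 past an adjusted p of 0.05, edgeR found 0, and 0 had an unadjusted p under 0.05. Calls were rare over all genes too, with 0.0799% of 12520 genes called by DESeq2 and 0.24% by edgeR. Each member had a DESeq2 adjusted p of 1. The median log2 fold change of the members was -0.02, with 5 above and 5 below 0.

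TGFBR3 held 83.48 and 129.1 normalized counts in RACK1-WT libraries and 88.28 and 113.4 in RACK1-Mut libraries. The groups overlapped, and the log2 fold change was -0.08 with a 95% interval from -0.62 to 0.47. Its sign turned to 0.27 when the second RACK1-WT library was left out. Whether this change differs from that in siTARG1 cells was not tested.

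The other receptors were measured more tightly where their counts were high. TGFBR2 gave 607.5 and 621.8 normalized counts in RACK1-WT against 643.0 and 648.6 in RACK1-Mut libraries (log2 fold change 0.07, 95% interval -0.15 to 0.29). BMPR2 gave 170.8 and 170.0 against 178.9 and 197.7 (0.14 on the log2 scale, interval -0.24 to 0.52). Both lay slightly higher in each RACK1-Mut library, within the error of the fit. TGFBR1 gave 44.83 and 34.32 against 47.72 and 61.96 normalized counts, the widest interval among the receptors (log2 fold change 0.47, interval -0.27 to 1.2). ACVR1B (-0.06, interval -0.51 to 0.39) and ACVR1 (-0.15, interval -0.63 to 0.32) overlapped between the groups.

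SMAD levels were likewise not told apart. The log2 fold changes were 0.02 for SMAD2 (95% interval -0.36 to 0.41), 0.06 for SMAD3 (-0.26 to 0.39) and -0.11 for the SMAD4 region (-0.50 to 0.28). SMAD7 had the largest difference of the 10 and the fewest counts. Its libraries held 27 and 19 raw counts in RACK1-WT and 5 and 10 in RACK1-Mut cells, or 20.87 and 15.52 against 5.965 and 13.18 normalized counts. This was 52.1% of the RACK1-WT level (log2 fold change -0.94, interval -2.33 to 0.44), with a DESeq2 unadjusted p of 0.183. The groups did not overlap for SMAD7, TGFBR1, TGFBR2 and BMPR2, or 4 of 10 members, a share to set beside the 37.6% of all genes tested whose groups did not overlap.

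**Figure D3:**
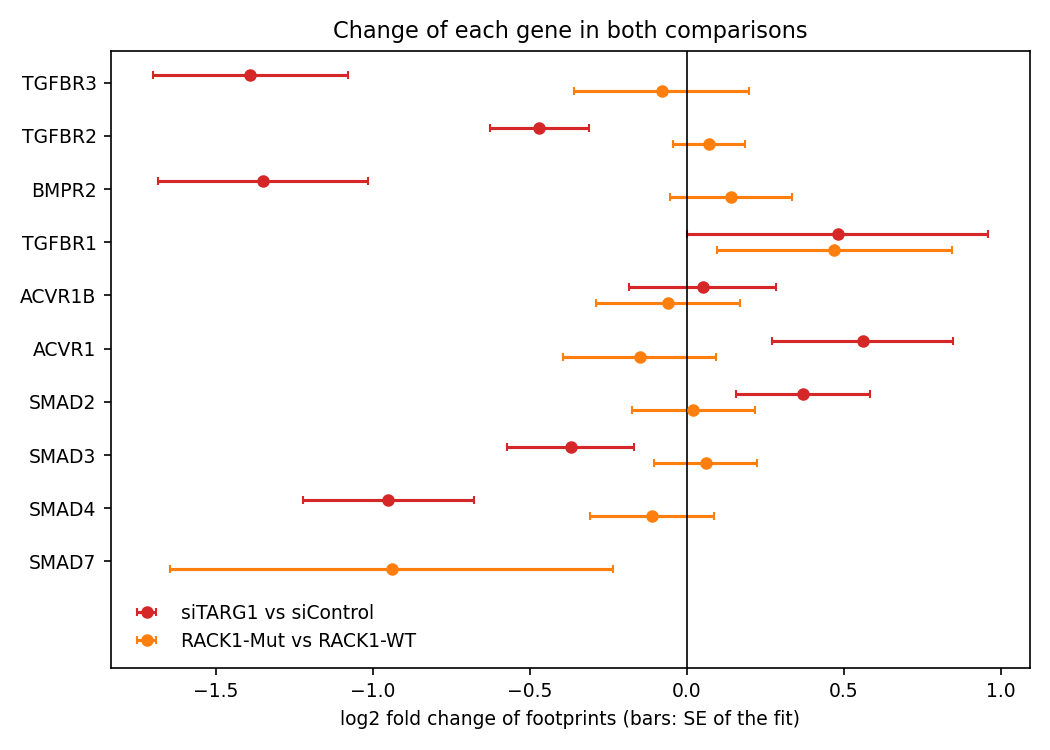
Log2 fold change of coding sequence footprints for each gene (x axis), with the standard error of the DESeq2 fit as bars, in siTARG1 over siControl cells (red) and RACK1-Mut over RACK1-WT cells (orange). The red points of TGFBR3 (-1.39) and BMPR2 (-1.35) are farthest below 0, the orange points other than SMAD7 and TGFBR1 lie within 0.15 of 0, and SMAD7 has no red point because it was not fitted.

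Levels of different genes were compared as CPM per kb of coding sequence. By the mean over the 8 libraries the order was TGFBR2 (62.9), SMAD3 (46.2), SMAD2 (32.9), ACVR1B (21.1), ACVR1 (16.4), the SMAD4 region (16.2), BMPR2 (9.31), TGFBR3 (8.69), TGFBR1 (6.18) and SMAD7 (1.27). Footprints of the kinase receptor TGFBR2 were thus dense, and those of its partner TGFBR1 sparse. In siControl cells TGFBR2 stood at 63.0 ± 4.74 (SD, n = 2) and TGFBR1 at 5.06 ± 1.21.

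Several neighbors in this order did not differ beyond their spread. In siControl cells TGFBR3 (12.1 and 14.5 CPM per kb) and ACVR1 (13.1 and 13.4) overlapped. In siTARG1 cells ACVR1 was at 19.9 and 21.2 and TGFBR3 at 5.22 and 5.49, a level that overlapped with BMPR2 (3.20 and 5.30) and lay below TGFBR1 (6.88 and 7.80). ACVR1 overlapped with both ACVR1B and the SMAD4 region in RACK1-WT cells, as the SMAD4 region did with ACVR1B and ACVR1 in RACK1-Mut cells. TGFBR3 overlapped with TGFBR1 in RACK1-Mut cells (6.93 and 8.86 against 6.29 and 8.12). SMAD3 overlapped with both TGFBR2 and SMAD2 in siTARG1 cells, where its libraries were far apart (48.2 and 36.8).

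Between the experiments, which were prepared separately and were not compared by a test, ACVR1B had 24.8 ± 1.34 CPM per kb in siControl cells and 16.6 ± 1.34 in RACK1-WT cells (SD, n = 2 each). SMAD7 had 0.405 ± 0.216 in siControl, 0.403 ± 0.218 in siTARG1, 2.79 ± 0.559 in RACK1-WT and 1.49 ± 0.788 in RACK1-Mut cells. The siControl and siTARG1 values of SMAD7 rest on 1 to 3 counts per library.

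**Figure D4:**
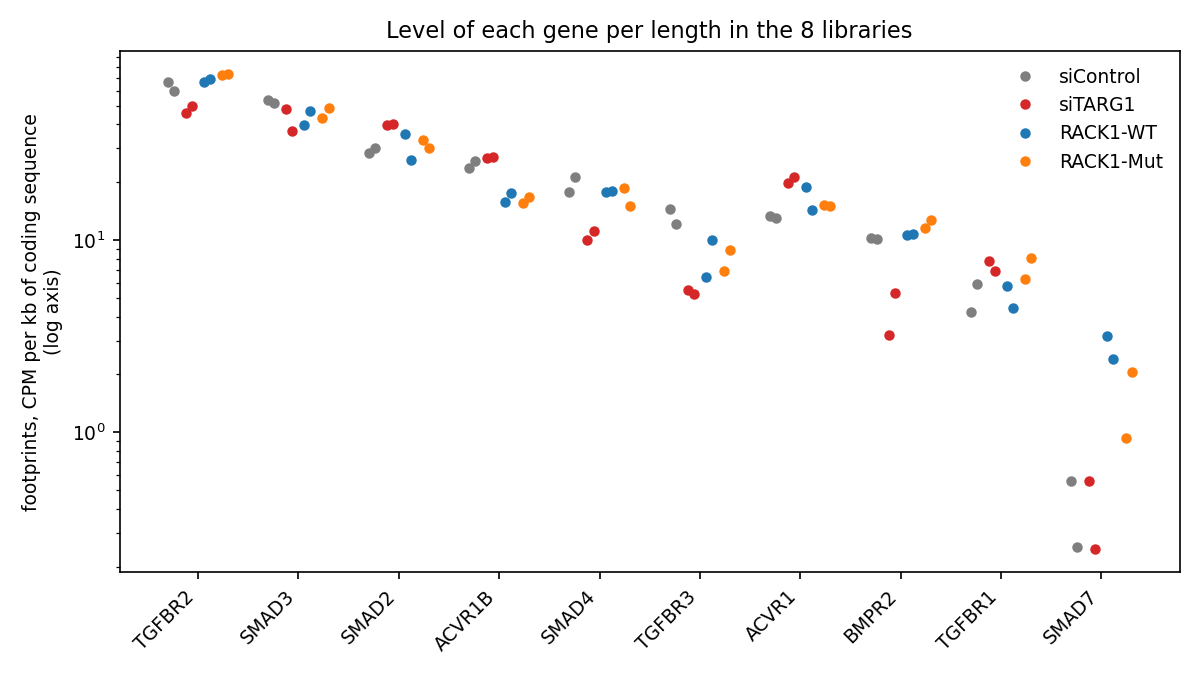
Level in CPM per kb of coding sequence (log axis) of each gene in each of the 8 libraries, ordered by the siControl mean. TGFBR2 is highest in the siControl, RACK1-WT and RACK1-Mut groups, SMAD7 lowest throughout, and the siTARG1 points of TGFBR3, BMPR2 and SMAD4 fall below the other groups of the same gene.

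Footprints outside the coding sequence were few. Over the pooled libraries of a group, TGFBR3 had 19 of 271 exon footprints in its 5′ UTR in siControl cells (7.01%, exact 95% interval 4.27 to 10.7) and 4 of 105 in siTARG1 cells (3.81%, 1.05 to 9.47), intervals that overlap. The share was highest for BMPR2 among members with more than 100 footprints in each group, from 8.66% in siControl to 12.0% in RACK1-Mut cells, and it was 11.3% in siTARG1 cells. SMAD2 had 10 of 309 footprints in the 5′ UTR in siControl and 24 of 437 in siTARG1 cells (3.24% and 5.49%), and 5 of 562 in RACK1-WT and 14 of 375 in RACK1-Mut cells (0.89% and 3.73%). By library, the last pair held 0 and 5 such footprints in RACK1-WT and 5 and 9 in RACK1-Mut cells. The exact intervals of this pair, 0.289 to 2.06 and 2.06 to 6.18, met at their edges. These intervals cover counting error only, and no test was made. ACVR1B, by contrast, had 0 or 1 footprint in its 5′ UTR in each group. The 3′ UTR took at most 1.96% of footprints in members other than SMAD7.

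A set of 5 genes followed TGFBR3 most closely across the 8 libraries by Pearson r of log2 normalized counts, among 8684 genes with a mean of at least 50 normalized counts. They were VASN (r = 0.987), TMEM109 (0.968), ZNRD2 (0.967), a region that matched no symbol (0.965) and CHMP1B (0.965). All 5 had lower values in siTARG1 cells, and the points share library, depth and the same group difference, so r is a description over 8 libraries. TMEM109 had the largest decrease of the 5, with 239.6 and 208.5 normalized counts in siControl and 70.85 and 85.27 in siTARG1 libraries. On that common scale, TGFBR3 held 159.7 and 133.4 in siControl, 57.26 and 55.1 in siTARG1, 70.69 and 109.2 in RACK1-WT and 74.55 and 95.45 in RACK1-Mut libraries.

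The rest of the pathway was read from a list of 93 other TGF-beta and BMP genes, of which 92 had a counted region. In the siTARG1 comparison 71 had an adjusted p, of which 7 rose, 13 fell and 51 did not pass the DESeq2 threshold, with a median log2 fold change of 0.0. Over all genes 7.79% were called higher and 9.96% lower. The share of the list called higher, 7 of 71, was near that background. The share called lower, 13 of 71, was above it, and no test of that difference was made. By edgeR 12 were higher and 18 lower, against 13.4% and 15.4% of all genes. With any 1 library left out, 6 to 11 genes of the list were past the DESeq2 threshold.

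Among other receptors, 1 of 5 was called, to be set beside the 9.96% lower and 7.79% higher over all genes. ACVR2B, a type II receptor for activins and related ligands, fell from 43.07 and 44.11 normalized counts in siControl to 7.491 and 11.25 in siTARG1 libraries (log2 fold change -2.24, SE 0.587, DESeq2 adjusted p = 0.0017). This was the largest fall on the list. ACVR2A, the related type II receptor, held 239.1 and 269.4 against 233.9 and 259.8 (-0.04, adjusted p = 0.925 in DESeq2). BMPR1B, a type I receptor, held 58.89 and 70.33 against 36.62 and 35.99 normalized counts (log2 fold change -0.83), with an adjusted p of 0.142 in DESeq2 and 0.0205 in edgeR.

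Of the other SMADs, SMAD1 and SMAD5, which carry BMP signals, both rose. SMAD1 went from 131.0 and 112.1 to 205.6 and 186.7 normalized counts (log2 fold change 0.69, SE 0.228, DESeq2 adjusted p = 0.0192). SMAD5 went from 70.31 and 77.48 to 131.5 and 125.9 (0.81, SE 0.28, adjusted p = 0.0267 in the same DESeq2 fit). SMAD6, an inhibitory SMAD, was at 9.536 and 13.18 in siControl and 24.97 and 25.86 in siTARG1 libraries, with an adjusted p of 0.245 in DESeq2.

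Of 10 ligands 2 fell and 0 rose by DESeq2, and of 6 inhibitors 1 fell and 1 rose. Over all genes 9.96% were called lower and 7.79% higher, and no test of a difference from these shares was made. GDF11, a ligand of the activin class, fell to 35.79 and 32.61 normalized counts from 138.0 and 133.5 (log2 fold change -1.98, SE 0.322). BMP4 fell to 34.13 and 43.86 from 102.8 and 83.44 (-1.27, SE 0.357), and NOG, which encodes the BMP antagonist noggin, fell to 30.80 and 38.23 from 131.0 and 103.7 (-1.78, SE 0.344). FST, which encodes the activin antagonist follistatin, rose to 210.6 and 219.3 from 120.4 and 131.1 (0.78, SE 0.218). For none of these 4 did the groups overlap. TGFB1 (log2 fold change -0.48, DESeq2 adjusted p = 0.577), TGFB2 (-0.34, 0.516) and TGFB3 (0.36, 0.816), the ligands of TGFBR2, did not pass the threshold.

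Of 17 genes for ubiquitin ligases, phosphatases and traffic, 5 fell and 0 rose by DESeq2, to be set beside the 9.96% lower and 7.79% higher over all genes, and no test of that difference was made. SMURF2, a ubiquitin ligase that acts on SMADs and TGF-beta receptors, had the largest of these falls, from 394.6 and 410.1 to 134.8 and 133.8 normalized counts (log2 fold change -1.58, SE 0.181). WWP1, a related ligase, had a log2 fold change of -1.17, and 34.2% of its 28-nt coding windows also occur in other genes, so its count is uncertain. USP4 (-0.74), STUB1 (-0.59) and STRAP (-0.58) were the others, and STRAP shares 23.5% of its windows with other genes. Among genes that store or activate ligand, 1 of 8 was called: ITGAV, an integrin subunit that takes part in activating latent TGF-beta, rose from 551.1 and 568.6 to 927.2 and 918.8 (0.72, SE 0.113).

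Nuclear partners and target genes were split too. Of 10 partners, the coactivator CREBBP rose (log2 fold change 0.66, SE 0.133) and the transcription factor SP1 fell (-0.55). Among 12 target genes tested, 2 rose and 3 fell. The counts of partners and targets are to be set beside the 7.79% higher and 9.96% lower over all genes. No test of that difference was made. JUNB, a transcription factor of the AP-1 family, rose from 112.5 and 121.6 to 258.9 and 283.4 normalized counts (1.21, SE 0.21), and BHLHE40, a transcriptional repressor, rose by 0.85 on the log2 scale (SE 0.226). CDKN1A, which encodes the cell cycle inhibitor p21, fell from 59.77 and 76.29 to 17.48 and 19.12 (-1.89, SE 0.451), with smaller falls of CDKN2B (-0.52) and FN1 (-0.41). CDKN2B shares 19.0% of its windows with another gene, so its count is uncertain too. CCN2 and ID1, also target genes, did not pass the threshold: CCN2 had a log2 fold change of -0.19 (DESeq2 adjusted p = 0.19) and ID1 of 0.17 (0.191).

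**Figure D5:**
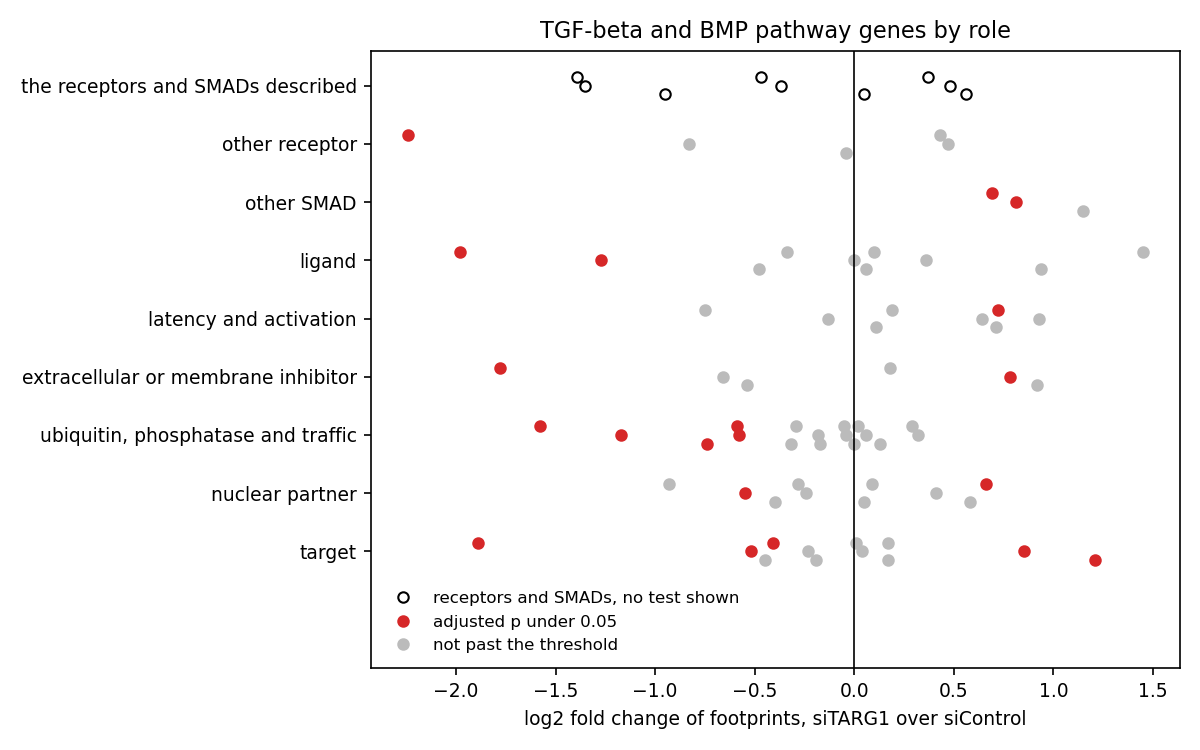
Log2 fold change of footprints in siTARG1 over siControl cells (x axis) for each pathway gene with an adjusted p, in rows by role. Open circles are the receptors and SMADs described, shown without a test, and filled points are the other 71 genes, red where the DESeq2 adjusted p was under 0.05 (7 to the right of 0 and 13 to the left).

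In the RACK1 comparison, 79 genes of the same list were tested and 0 were called by DESeq2 or by edgeR, with a median log2 fold change of 0.01. At an unadjusted p under 0.05 there were 2, GDF15 (-0.31, unadjusted p = 0.0216 in DESeq2) and ITGAV (-0.23, unadjusted p = 0.00298). The ligands TGFB1, TGFB2 and TGFB3 had log2 fold changes of 0.01, 0.21 and -0.17, and the targets CCN2 and ID1 had -0.01 and -0.22.

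The 3′ UTR words were counted on this list as well, as a description. A match to TGAACATA was present in 6 of 13 genes called lower in siTARG1 cells (ACVR2B, CDKN2B, GDF11, SP1, STRAP and WWP1), in 1 of 7 called higher and in 9 of 48 not called. Over all genes the shares were 39.1% of 1053 called lower, 15.0% of 839 called higher and 17.7% of those not called. The median 3′ UTR of these groups was 1571, 1831 and 1289 nt. Neither these shares nor those of the list were matched for length. TGAATATA was present in 5 of 13 lower, 4 of 7 higher and 15 of 48 not called genes of the list, and over all genes in 26.3% of those called lower and 49.0% of those called higher. Because the words were chosen on these data, the shares are not independent evidence. Among the largest falls on the list, ACVR2B and GDF11 held a match to the first word, and CDKN1A, NOG, SMURF2 and BMP4 held none.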

How the data were processed

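The authors digested lysates with RNase I, ligated linkers with unique molecular identifiers (collapsing of identifiers before counting is not stated), removed rRNA reads with Bowtie 1.1.2 and aligned with TopHat2 2.1.1, allowing 64 hits per read. The deposited counts were made by the authors with Plastid on hg19 (GRCh37) and GENCODE 24. Per the file headers, reads of 26 to 36 nt were assigned 14 nt from the 5′ end, while the study's methods count the offset from the 3′ end. The deposited RPKM values of the authors were not used. RNA-seq was not analysed here, so counts give footprint abundance and not translation efficiency.

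Symbols came from GENCODE 44 on GRCh37 (97.3% of 20165 regions). DESeq2 1.42.0 in R 4.3.3 (Wald test, Benjamini-Hochberg) was fitted to coding counts of the 4 libraries of each comparison, for genes with at least 10 counts in all. A gene was called at an adjusted p under 0.05. The fits were tested on simulated data with the same dispersion for every gene and changes planted only in genes with high counts. Such counts were not reached by TGFBR1 and SMAD7, nor by TGFBR3, BMPR2 and ACVR1 in the siRNA experiment. Intervals of fold changes are Wald 95% intervals, and shares have exact binomial (Clopper-Pearson) intervals. Alternatives were edgeR 4.0.16 (quasi-likelihood, TMM), TMM in DESeq2, no filter, 10 counts in every library, exon counts, a replicate block, all 8 libraries together and each library left out. The methods state independent biological samples, so p-values refer to the spread between such samples. With 2 libraries per group, DESeq2 and edgeR set the variance of a gene partly from that of other genes. A p-value therefore does not rest on the spread of that gene alone.

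The members, the pathway list and the words were chosen with earlier results of these data known. Named are all 10 members, OARD1 and RACK1, in the pathway list the called genes with a mean of at least 20 normalized counts (up to 6 rises and 6 falls of largest size), TGFB1, TGFB2, TGFB3, CCN2 and ID1 (another gene that the rule names is not reported here), and the 5 genes most like TGFBR3 (pseudocount 1). Other pathway genes named (ACVR2A, BMPR1A, BMPR1B, ENG, SMAD6, WWP1, USP4, STUB1, STRAP, SP1, CREBBP, CDKN2B, FN1, GDF15) were picked after their values were seen.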

Additional observations from a re-analysis of the deposited data

How the results depend on the processing

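In the siTARG1 comparison 1974 genes were called by DESeq2, 3470 by edgeR (all 1974 among them), 1125 with the replicate block and 564 to 744 with a library left out. In the RACK1 comparison the counts were 10, 30 (all 10 among them), 6 and 1 to 3. Where a library was left out, the 1 remaining in its group is assumed to vary like the other group. Members called in siTARG1 cells numbered 4, and 0 to 2 with a library left out. Other pathway genes called numbered 20, and 6 to 11 with a library left out, 30 by edgeR and 15 with the replicate block. Scaled counts of libraries with the same replicate number showed little shared deviation from their group means. The correlation of these deviations was 0.03 over 8148 genes in the siRNA experiment and 0.08 over 9055 genes in the RACK1 experiment. Depth did go with the replicate number in the siRNA experiment. Coding counts were 4207939 and 4207861 in the first siControl and siTARG1 libraries, and 3100947 and 3145173 in the second. Whether the libraries were prepared in pairs is not known from the labels, and the main fits ignored pairing. With the replicate block the TGFBR2 call was lost (log2 fold change -0.47). No log2 fold change of a member changed sign under edgeR, TMM, filter, exon count, replicate block or joint-fit settings. Small ones changed sign with a library left out, and the cause was not tested. In siTARG1 cells this was ACVR1B (-0.018 to 0.10). In RACK1-Mut cells these were TGFBR3 (-0.36 to 0.27), ACVR1B (-0.13 to 0.019), ACVR1 (-0.35 to 0.079), SMAD2 (-0.19 to 0.28), SMAD3 (-0.041 to 0.18) and SMAD4 (-0.27 to 0.027). Depth limited SMAD7 and TGFBR1 most.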
